A study of Mus musculus with 13 samples.

Results

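Membrane transporters of the Slc1, Slc2, Slc5, Slc6, Slc7, Slc16 and Slc38 families bring sugars, lactate, pyruvate and amino acids into cells. They were examined here in RNA from mouse spermatogonia, the germ cells that divide by mitosis before meiosis begins. Members were all gene symbols formed of one of these 7 family names, the letter a and a number, and 86 of the 20662 listed symbols met this rule. The rule uses symbols and no measured value.

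Germ cells from the testes of C57BL/6 mice at postnatal week 8 were profiled by directional RNA-seq after depletion of ribosomal RNA. Values were analysed for the 2 spermatogonial samples titled KIT_AGSC and THY1_AGSC (1 library each, here KIT and THY1), and the other 11 samples (spermatocytes, spermatids and mature sperm) were not analysed here. KIT is the stem cell factor receptor of differentiating spermatogonia and THY1 a surface antigen used to enrich undifferentiated ones. No treatment or mutation is given for either sample, and the labels do not say how the cells were isolated or how many mice were used. With 1 library per group there is no replicate, so no difference below carries an error, a test or a p-value, and each compares 2 libraries.

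The libraries went against their titles. Kit was listed at 0 in the KIT-labelled library and at 36.7 FPKM (mapped fragments normalised to transcript length and to the library total) in the THY1-labelled library, and Thy1 stood at 78.8 against 0.723 FPKM. The value column of the former is headed Thy1 and that of the latter Kit. Titles were followed throughout, and every direction would turn if they were exchanged. Markers of other stages and cell types were present, with the KIT-labelled library first in each pair of sums and in each count of genes at least 2-fold higher. Undifferentiated spermatogonia (10 genes) summed to 260 and 9.74 FPKM with a count of 5 against 1, and the defining Zbtb16 was listed at 0 in both. Differentiating spermatogonia (6 genes) summed to 41.4 and 122 FPKM with 0 against 4. Spermatocyte genes summed to 171 and 7605 FPKM (0 against 9 of 9) and Leydig genes to 165 and 6469 FPKM (0 against 6 of 7). Spermatid genes summed to 4914 and 1902 FPKM with 5 against 3, the first sum mostly protamines and transition proteins and the second led by Ldhc (1012 FPKM), with Spaca1 and Gapdhs also toward the THY1-labelled library. For Sertoli and macrophage genes the sum and the count pointed opposite ways. The former summed to 40.6 and 873 FPKM with 5 against 2, the second sum being almost wholly Clu (848 FPKM). The latter summed to 276 and 968 FPKM with 5 against 3, the second almost wholly Aif1 (880 FPKM). Peritubular (180 and 49.3 FPKM, 3 against 0), T cell (42.9 and 8.52 FPKM, 4 against 1) and erythroid genes (72.8 and 12.9 FPKM, 3 against 0) lay toward the KIT-labelled library. Endothelial genes summed to 62.1 and 10.3 FPKM with 2 against 2. The part of these other cells in the transporter differences was not tested. In bulk RNA, fewer cells of a type and less RNA per cell cannot be told apart.

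Depth is unknown, but what a single fragment was worth can be approximated from genes near the detection limit, as the product of FPKM and transcript length at their percentile 5. It was 6.41 times larger in the KIT-labelled library, so low values there rest on fewer fragments. An approximate fragment number is given beside many of the low values. Gapdh, used by nearly every cell, was listed at 0 in the THY1-labelled library and Ppia in both, so a 0 is given only as listed at 0.

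Each family has its own substrates and driving force. The facilitative GLUT transporters (Slc2) pass hexoses down their gradient, and the Slc5 family couples sugars and other solutes to sodium. Some of the monocarboxylate transporters (Slc16) move lactate and pyruvate together with protons. Other Slc16 members carry other substrates, such as carnitine, creatine or aromatic amino acids. Sertoli cells turn glucose into lactate and supply it to the germ cells beyond the blood-testis barrier, whereas spermatogonia lie outside that barrier. Amino acids enter through sodium-coupled carriers (Slc1, Slc6 and Slc38) and through exchangers and cationic carriers (Slc7), many of which need a glycoprotein heavy chain to reach the membrane.

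Across the 86 transporters the balance lay toward the KIT-labelled library. A gene was counted as higher when log2(FPKM + 1) differed by at least 1 (2-fold on that scale, which understates the change of low genes). By this rule 39 members were higher in the KIT-labelled library, and 13 in the THY1-labelled library, together 78.8% of the 66 transporters that reached 1 FPKM in either library, beside 80.6% of all such genes. A further 14 that reached 1 FPKM lay within 2-fold, and 20 reached 1 FPKM in neither library. Over all genes that reached 1 FPKM in either library, 39.5% were higher in the KIT-labelled library and 41.1% in the THY1-labelled library. Among the 66 transporters the shares were 59.1% and 19.7%. Their median difference, labelled KIT minus labelled THY1, was 1.39, beside -0.0026 for all 15573 genes. Without the minimum it was 0.92 over all 86 members, beside 0 over all symbols.

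The direction was not shared by all 7 families. The median difference of members that reached 1 FPKM was 2.43 for Slc2, 1.89 for Slc5, 2.02 for Slc16, 1.33 for Slc1 and 1.69 for Slc6. It was -0.07 for Slc7, a sign that turned under scaling of the libraries to the same upper quartile (0.18) or to the same sum without Rpph1 (0.14), and the median was 2.79 over the 4 members that reached 30 FPKM (3 higher in the KIT-labelled library and 1 in the other). For Slc38 it was -1.92. The signs of the other 6 families were the same under all 3 scalings tried.

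**Figure D1:**
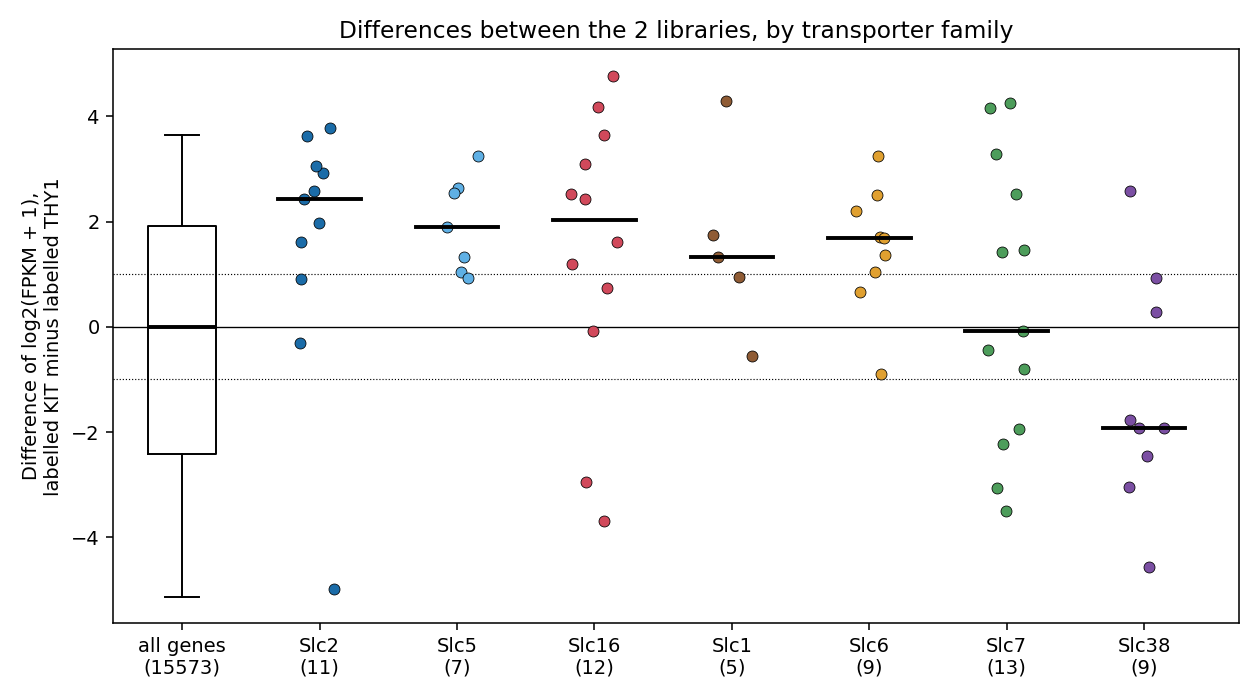
Difference of log2(FPKM + 1), labelled KIT minus labelled THY1 (vertical axis), of each transporter that reached 1 FPKM in either library, by family with the number of genes in brackets; thick bars are family medians, dotted lines mark 2-fold, and the box for all genes spans the quartiles with whiskers at percentiles 5 and 95. Points of Slc2, Slc5, Slc16, Slc1 and Slc6 lie mostly above 0, those of Slc7 on both sides, and 6 of 9 in Slc38 lie below the lower dotted line.

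The highest levels were reached in the KIT-labelled library. There 5 transporters stood at 100 FPKM or more (5.81%, beside 4.00% of all symbols). They were Slc16a3 (at percentile 99.4 of all symbols), Slc16a4, Slc16a8, Slc2a5 and Slc7a15. None reached 100 FPKM in the THY1-labelled library (beside 5.00% of all symbols), where Slc2a3 was highest. At 10 FPKM or more there were 33 members in the KIT-labelled library (38.4%, beside 28.1% of all symbols) and 20 in the THY1-labelled library (23.3%, beside 34.4%). The summed FPKM of the 86 members was 2058 in the former and 741 in the latter. A value of 0 was listed for 21 members in the KIT-labelled library (24.4%, beside 33.2% of all symbols) and for 18 in the THY1-labelled library (20.9%, beside 24.2%).

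**Figure D2:**
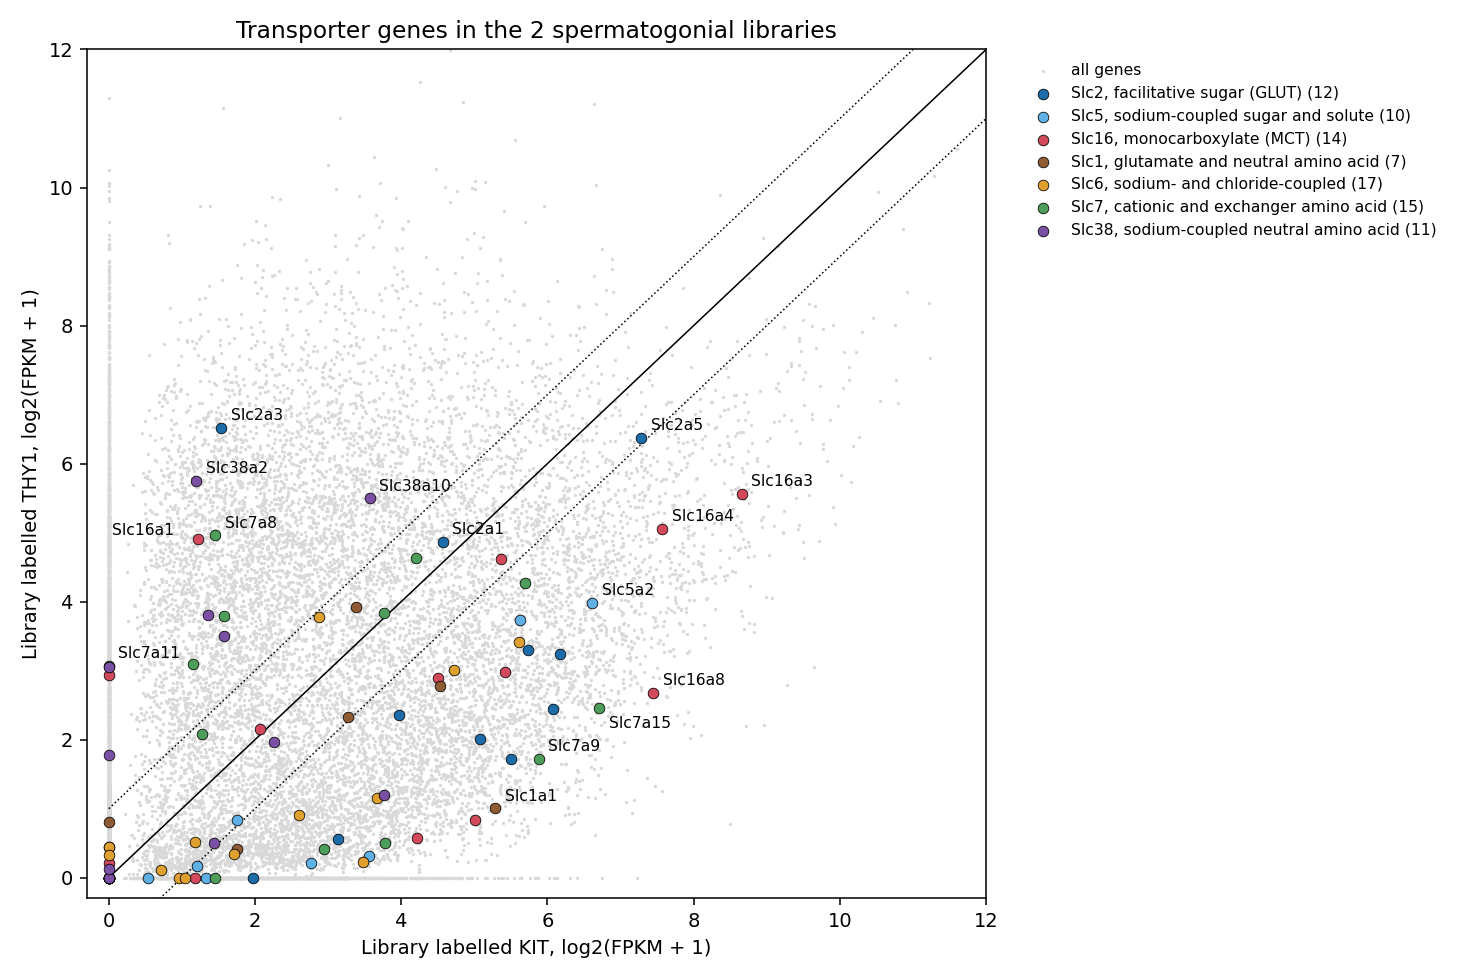
Level of each transporter as log2(FPKM + 1) in the KIT-labelled library (horizontal axis) and in the THY1-labelled library (vertical axis), coloured by family over all genes in grey; the solid line marks equal values, the dotted lines 2-fold, and 4 non-member genes lie beyond the axes at 12. Slc2a3, Slc38a2, Slc16a1 and Slc7a8 sit together at the upper left, and 39 members lie on or below the lower dotted line.

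The leading glucose transporter was not the same in the 2 libraries. Slc2a3, the high-affinity glucose transporter of neurons and germ cells, was at 1.89 FPKM in the KIT-labelled library (about 2.74 fragments) and at 90.7 FPKM in the THY1-labelled library. Of 12 Slc2 genes it alone was at least 2-fold higher in the latter. It made up 0.402% of the summed Slc2 FPKM in the KIT-labelled library and 39.0% in the THY1-labelled library. Such a share within a family does not depend on how the libraries are scaled. Slc2a1, which serves basal glucose uptake in most cells, was at 22.7 and 28.1 FPKM (labelled KIT first, as in all pairs of values below), within 2-fold.

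In all, 8 Slc2 genes lay the other way. Slc2a2, the low-affinity glucose transporter of liver and pancreatic beta cells, was at 66.7 against 4.46 FPKM, a ratio of 15.0. Slc2a4, the insulin-responsive transporter of muscle and fat, was at 70.8 against 8.44 FPKM. Slc2a8, an intracellular hexose transporter abundant in testis, was at 52.1 against 8.88 FPKM. These were 3 of the 4 highest Slc2 values in the KIT-labelled library, and all lay below 10 FPKM in the THY1-labelled library. The urate carrier Slc2a9 was at 44.2 against 2.30 FPKM, and the family's largest difference toward the KIT-labelled library (3.78) was its own. Slc2a6 was at 32.7 against 3.04 FPKM, Slc2a12 at 14.6 against 4.14 FPKM and the proton-coupled inositol carrier Slc2a13 at 7.79 against 0.479 FPKM. Slc2a7 was at 2.94 FPKM (about 1.70 fragments) against a listed 0, and so rests on very few fragments.

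Slc2a5, which carries fructose, was among the leading sugar transporters in both libraries. It stood at 154 FPKM in the KIT-labelled library, the highest Slc2 value there, and at 81.7 FPKM in the THY1-labelled library, below Slc2a3 alone. Its share of the family was 32.8% and 35.2%, and its difference of 0.91 was within 2-fold (1.17 after upper-quartile scaling and 1.13 after scaling to the same sum without Rpph1). Slc2a10 was listed at 0 in both libraries. Of 6 genes for sorbitol, fructose and inositol metabolism, 1 was at least 2-fold higher in each library. Ketohexokinase Khk, which commits fructose to breakdown, was at 27.5 and 31.8 FPKM.

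Sodium-coupled carriers of the Slc5 family were low in the THY1-labelled library. Their 10 members summed to 167 and 28.5 FPKM. A higher value by at least 2-fold was seen for 6 in the KIT-labelled library and for none in the other. Slc5a2, which reabsorbs glucose in the kidney tubule, led the family in both, at 96.5 and 14.8 FPKM. Its share was 57.7% and 51.9%. Second in both was Slc5a10, a kidney sugar transporter, at 48.5 and 12.4 FPKM. The order of these leading genes was thus the same in both libraries.

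The other Slc5 genes were near or below 10 FPKM. Slc5a9, a mannose transporter, was at 10.8 against 0.247 FPKM, and the iodide carrier Slc5a5 at 5.81 FPKM (about 6.21 fragments) against 0.163 FPKM. Slc5a6, the multivitamin transporter, was at 1.31 against 0.122 FPKM and the lactate carrier Slc5a12 at 1.52 FPKM against a listed 0, each under 2 fragments in the KIT-labelled library. Slc5a6 came within 2-fold (0.97) when the libraries were scaled to a median ratio of 1. The monocarboxylate carrier Slc5a8 was at 2.38 and 0.785 FPKM, a difference of 0.92 that passed 1 with a pseudocount of 0.1 (1.49) and under upper-quartile scaling (1.04) and scaling without Rpph1 (1.02). The intestinal glucose transporter Slc5a1 and the inositol transporter Slc5a11 were listed at 0 in both libraries, and the choline transporter Slc5a7 was at 0.456 FPKM against a listed 0.

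**Figure D3:**
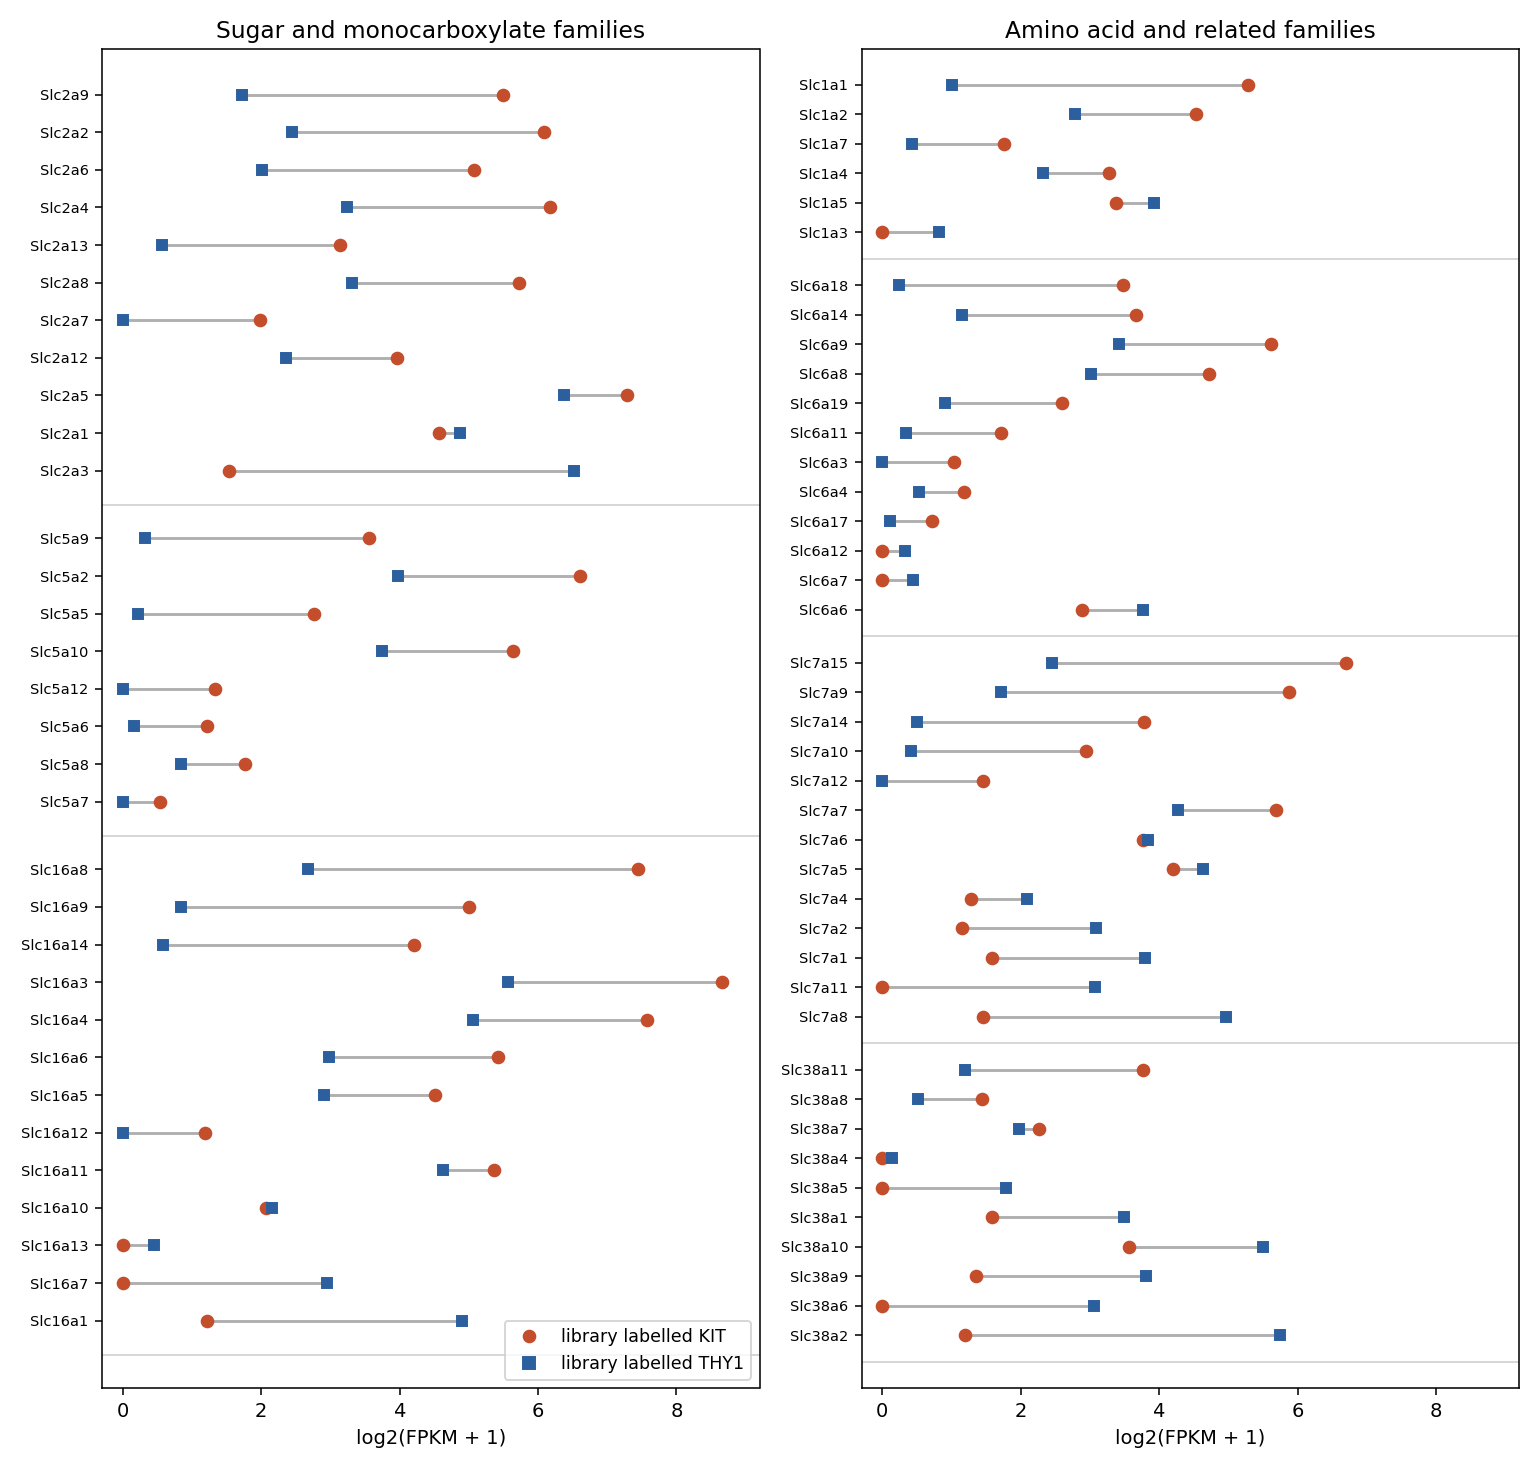
Level of the named transporters above 0 in at least 1 library, as log2(FPKM + 1) on the horizontal axis, with a circle for the KIT-labelled library and a square for the THY1-labelled library, by family (Slc2, Slc5 and Slc16 on the left; Slc1, Slc6, Slc7 and Slc38 on the right) and ordered by difference. In each family of the left panel most circles lie to the right of their squares. There Slc2a3, Slc16a1 and Slc16a7 lie the other way by at least 2-fold, and Slc2a1, Slc16a10 and Slc16a13 within 2-fold. In the lowest block on the right (Slc38) most squares lie to the right.

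The lactate transporters split by isoform. Slc16a1, a widely expressed isoform that carries lactate in either direction, was at 1.32 FPKM in the KIT-labelled library (about 2.14 fragments) and at 28.9 FPKM in the THY1-labelled library (about 300.2 fragments). Slc16a7, a high-affinity isoform suited to lactate uptake, was listed at 0 against 6.69 FPKM. These 2 were the only Slc16 genes at least 2-fold higher in the THY1-labelled library. Slc16a3, the isoform by which glycolytic cells release lactate, was at 402 against 46.3 FPKM and was the highest transporter of all 86 in the KIT-labelled library. Slc16a8, known from retinal pigment epithelium, was at 173 against 5.38 FPKM, the largest difference of any member toward that library (4.77).

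Shares within the family show the same contrast without regard to scaling. Slc16a1 made up 0.143% of the summed Slc16 FPKM in the KIT-labelled library and 17.9% in the THY1-labelled library. Slc16a3 made up 43.6% and 28.6%, so it led the family in both. Slc16a8 made up 18.8% and 3.32%. Slc16a4 was the second in both, at 189 and 32.3 FPKM, with 20.5% and 20.0% of the sum.

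**Figure D4:**
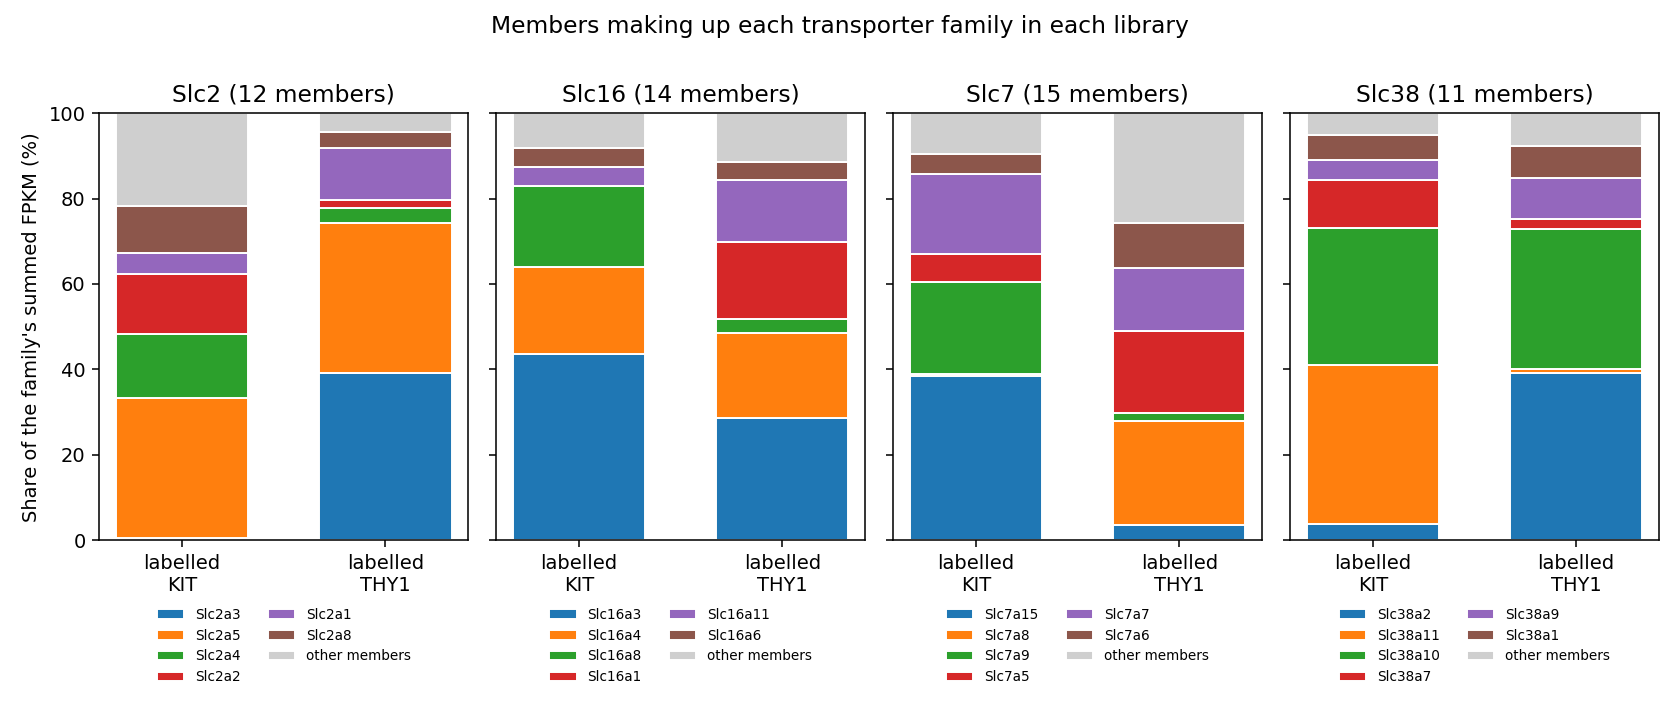
Share of the summed FPKM of 4 transporter families (vertical axis, %) held by their leading members in the KIT-labelled library and in the THY1-labelled library, with all remaining members in grey. Slc2a3 goes from 0.402% to 39.0% of Slc2, Slc16a1 from 0.143% to 17.9% of Slc16 and Slc38a2 from 3.80% to 39.2% of Slc38, while Slc16a4 and Slc38a10 hold similar shares in both.

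The start regions of Slc16a1 and Slc16a3, whose values lay in opposite directions, are shown for comparison as the 250 bases before the annotated start (RefSeq, GRCm38.p6, each on the + strand, from chr3:104638414-104638663 and chr11:120948817-120949066). Capitals mark matches on either strand to GGGCGG (the GC box bound by Sp1-type factors), to CACGTG (the E-box), to ACGTG (the core of hypoxia response elements), to TGACGTCA (the full cAMP response element) or to TATAAA (the TATA box).
Slc16a1: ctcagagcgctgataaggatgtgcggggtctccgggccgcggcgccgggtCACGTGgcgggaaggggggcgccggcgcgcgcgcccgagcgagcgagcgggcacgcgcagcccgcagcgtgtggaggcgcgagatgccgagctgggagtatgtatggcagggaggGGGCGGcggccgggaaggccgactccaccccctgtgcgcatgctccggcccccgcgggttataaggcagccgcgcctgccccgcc
Slc16a3: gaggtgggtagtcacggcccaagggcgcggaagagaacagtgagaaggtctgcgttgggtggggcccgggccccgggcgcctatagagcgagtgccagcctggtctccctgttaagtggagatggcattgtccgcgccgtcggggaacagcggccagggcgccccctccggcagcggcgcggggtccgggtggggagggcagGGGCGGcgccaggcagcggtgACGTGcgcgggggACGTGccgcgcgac
Both hold 1 GC box. Slc16a1 holds an E-box, whose letters contain the hypoxia core read on each strand, and Slc16a3 holds 2 separate hypoxia cores. Among all 32851 start regions of this length, 32.7% hold the GC box, 6.02% the E-box, 16.6% the hypoxia core, 1.55% the cAMP response element and 12.4% the TATA box. Of the 86 transporters 60 had a start region in this table (82 regions in all), and 46.3%, 11.0%, 22.0%, 1.22% and 7.32% of these held the same letters, in that order. A match is a description of sequence and no evidence of binding.

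The remaining Slc16 genes leaned toward the KIT-labelled library. The carnitine-releasing Slc16a9 was at 31.1 against 0.785 FPKM (about 6.91 fragments), a ratio of 39.6, and Slc16a14 at 17.5 against 0.490 FPKM (about 3.68 fragments), a ratio of 35.8. Slc16a6 was at 41.8 against 6.91 FPKM and Slc16a5 at 21.7 against 6.46 FPKM. The creatine carrier Slc16a12 was at 1.27 FPKM (about 1.89 fragments) against a listed 0. Slc16a11 was at 40.2 and 23.6 FPKM and the aromatic amino acid carrier Slc16a10 at 3.19 and 3.45 FPKM, both within 2-fold (Slc16a11 at 0.74, which just passed 1 under upper-quartile scaling). Slc16a13 was listed at 0 against 0.363 FPKM.

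The glycoproteins that carry monocarboxylate transporters to the membrane were higher in the THY1-labelled library. Basigin (Bsg), the partner of Slc16a1 and Slc16a3, was at 118 against 452 FPKM. Embigin (Emb), a partner of Slc16a7, was listed at 0 against 4.67 FPKM, and the related neuroplastin (Nptn) at 0 against 20.8 FPKM. Bsg thus lay in the same direction as Slc16a1 and opposite to Slc16a3. Of 13 enzymes of glucose and lactate entry, 7 were at least 2-fold higher in the THY1-labelled library and 2 in the other (median -2.01). Among the first were the germ cell lactate dehydrogenase Ldhc (31.1 against 1012 FPKM), Ldha (6.94 against 36.9 FPKM), hexokinase Hk1 (11.6 against 773 FPKM) and Hk2 (4.10 against 52.8 FPKM). The 2 were the mitochondrial lactate oxidiser Ldhd (90.9 against 39.2 FPKM) and Pkm2 (19.8 against 3.72 FPKM).

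**Figure D5:**
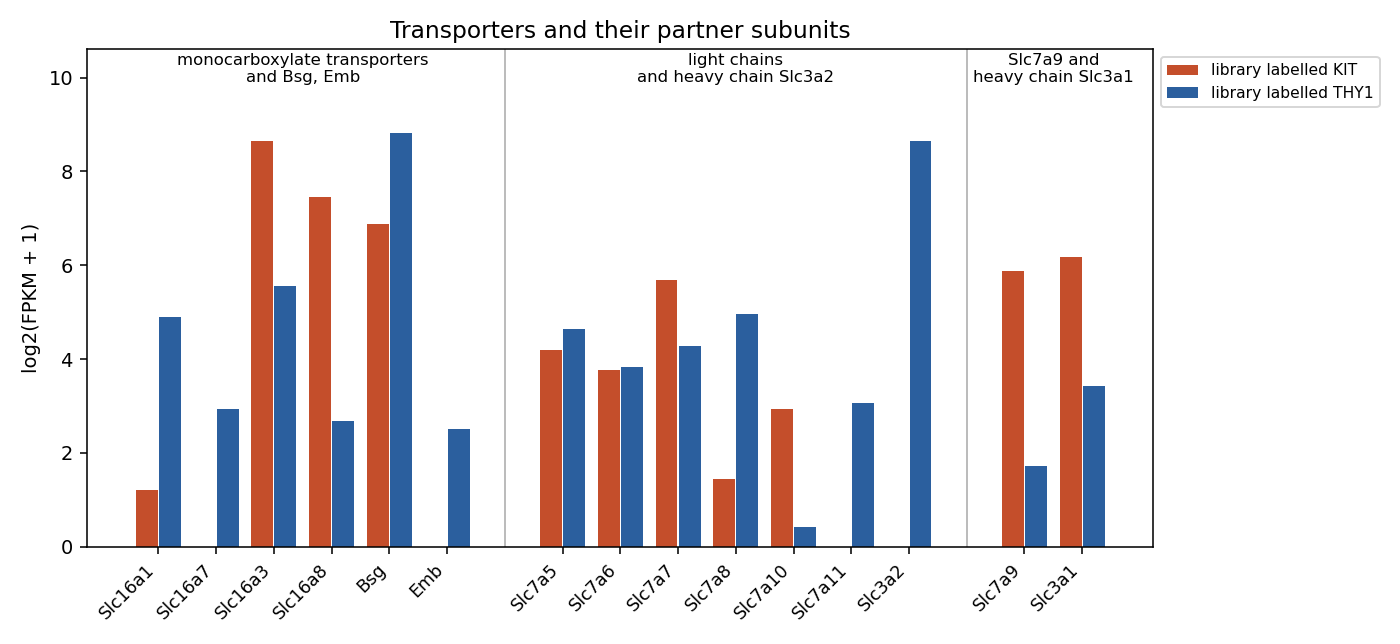
Level as log2(FPKM + 1) (vertical axis, from 0) of monocarboxylate transporters with Bsg and Emb, of Slc7 light chains with their heavy chain Slc3a2, and of Slc7a9 with its heavy chain Slc3a1, in the KIT-labelled library and in the THY1-labelled library; no bar means listed at 0. Slc3a2 is listed at 0 in the KIT-labelled library, where 5 of its 6 light chains have values above 0, while Slc7a9 and Slc3a1 are both higher there.

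Genes of the Slc7 family lay in both directions. These proteins are light chains that pair with the heavy chain Slc3a2 or Slc3a1, or are single-chain cationic carriers. Slc3a2 was listed at 0 in the KIT-labelled library and at 401 FPKM in the THY1-labelled library. Its light chains did not follow it as a group. Slc7a8, a neutral amino acid exchanger, was at 1.73 FPKM (about 2.59 fragments) against 30.1 FPKM, and Slc7a11, the cystine importer that feeds glutathione synthesis, was listed at 0 against 7.39 FPKM. Slc7a5, the leucine importer of proliferating cells, was at 17.4 and 23.9 FPKM, and Slc7a6 at 12.6 and 13.2 FPKM, both within 2-fold. Slc7a7, its close relative in cationic amino acid export, was at 50.6 against 18.4 FPKM (a difference of 1.42, and 0.88 when scaled to a median ratio of 1). Slc7a10 was at 6.68 FPKM (about 4.77 fragments) against 0.334 FPKM.

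The cystine and dibasic amino acid system of kidney and gut lay toward the KIT-labelled library in both subunits. Its light chain Slc7a9 was at 57.9 against 2.29 FPKM, a ratio of 25.2, and its heavy chain Slc3a1 at 71.4 against 9.72 FPKM. The cationic amino acid carriers Slc7a1 and Slc7a2 lay the other way. The arginine transporter Slc7a1 was at 1.98 FPKM (about 5.21 fragments) against 12.9 FPKM. Slc7a2 was at 1.21 FPKM (about 3.51 fragments) against 7.52 FPKM, and their relative Slc7a3 was listed at 0 in both. Slc7a15 was at 103 against 4.48 FPKM and Slc7a14, known from lysosomes of neurons, at 12.7 against 0.420 FPKM. Slc7a4 was at 1.42 and 3.24 FPKM (-0.81, and -1.13 with a pseudocount of 0.1 or -1.26 when scaled to a median ratio of 1), Slc7a12 at 1.74 FPKM (about 1.11 fragments) against a listed 0, and Slc7a13 was listed at 0 in both. In all, 6 of 15 members were higher in the KIT-labelled library and 4 in the other.

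Slc38, the sodium-coupled glutamine and alanine transporters, was the one family with more members higher in the THY1-labelled library. Of its 11 members, 6 exceeded 2-fold in this direction and 1 in the opposite one, and they summed to 33.7 and 135 FPKM. Slc38a2, a carrier that cells induce when amino acids run short, was at 1.28 FPKM (about 2.18 fragments) against 52.8 FPKM. Slc38a1, its close relative in glutamine uptake, was at 1.99 FPKM (about 5.28 fragments) against 10.3 FPKM. Slc38a2 held 3.80% of the family's sum in the KIT-labelled library and 39.2% in the other.

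Other members of the family followed. Slc38a9, the lysosomal arginine sensor upstream of mTORC1, was at 1.56 FPKM (about 5.09 fragments) against 13.0 FPKM and Slc38a10 at 10.8 against 44.2 FPKM. Slc38a6 and Slc38a5 were listed at 0 against 7.29 and 2.43 FPKM, and Slc38a6 shares sequence with many other genes (given below). The exception was Slc38a11, at 12.6 FPKM (about 7.38 fragments) against 1.28 FPKM. Slc38a7, a lysosomal glutamine exporter, was at 3.78 and 2.92 FPKM and Slc38a8 at 1.72 and 0.423 FPKM, both within 2-fold (Slc38a8 at 1.80 with a pseudocount of 0.1 and 1.01 under upper-quartile scaling), and Slc38a4 was listed at 0 against 0.0961 FPKM. Slc38a3, a glutamine carrier of liver and brain, was listed at 0 in both libraries.

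The start region of Slc38a2, the member with the largest difference toward the THY1-labelled library among amino acid carriers (-4.56), is printed as the 250 bases before its annotated start (RefSeq, GRCm38.p6, - strand of chr15:96699729-96699978), with the same letters in capitals.
Slc38a2: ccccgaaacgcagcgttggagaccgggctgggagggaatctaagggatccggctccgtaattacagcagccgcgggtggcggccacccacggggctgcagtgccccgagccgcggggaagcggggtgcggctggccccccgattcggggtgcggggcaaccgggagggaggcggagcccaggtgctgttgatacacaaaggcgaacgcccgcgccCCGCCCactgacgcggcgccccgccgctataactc
It holds 1 GC box, read on the opposite strand, and none of the other 4 sets of letters.

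Genes of amino acid sensing lay mostly in the same direction as Slc38a9. Of 10 listed, 7 were at least 2-fold higher in the THY1-labelled library and 2 in the other (median -1.42), with the kinase Mtor at 2.41 against 58.5 FPKM and the amino acid stress factor Atf4 at 38.6 against 107 FPKM. Of 9 glutamate and glutamine enzymes, 4 were higher in each library. Asparagine synthetase Asns was at 12.5 against 77.1 FPKM. Of 5 serine and glycine enzymes, 3 were higher in the THY1-labelled library and 1 in the other. Beside the cystine importer Slc7a11, the glutathione list had 2 of 5 genes higher in the THY1-labelled library, namely Gclc (5.95 against 61.5 FPKM) and Cth (listed at 0 against 21.8 FPKM), and 1 in the other, Cbs. Over the 55 pathway genes that reached 1 FPKM (of 61 listed), 29 were higher in the THY1-labelled library (52.7%, beside 41.1% of all genes) and 15 in the KIT-labelled library (27.3%, beside 39.5%), with a median of -1.36.

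Glutamate transporters of the Slc1 family lay mostly toward the KIT-labelled library. Slc1a1, which imports glutamate and cysteine in neurons and kidney, was at 38.1 against 1.01 FPKM, a ratio of 37.9, and made up 47.3% and 3.84% of the family's sum. Slc1a2, the main glutamate transporter of astrocytes, was at 22.1 against 5.85 FPKM. Slc1a7 was at 2.38 FPKM (about 2.61 fragments) against 0.340 FPKM. The neutral amino acid exchangers differed less. Slc1a5, the glutamine carrier of proliferating cells, was at 9.40 and 14.2 FPKM, within 2-fold (-0.55, and -1.08 when scaled to a median ratio of 1), and led the family in the THY1-labelled library with 54.3% of its sum. Slc1a4, which carries serine and alanine, was at 8.66 and 4.01 FPKM, a difference of 0.95 that passed 1 with a pseudocount of 0.1 (1.09) and under upper-quartile scaling (1.16) and scaling without Rpph1 (1.12). The glial Slc1a3 was listed at 0 against 0.754 FPKM (-0.81, and -1.08 when scaled to a median ratio of 1), and the cerebellar Slc1a6 was listed at 0 in both.

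Slc6 carriers, which take up neurotransmitters, creatine, taurine and amino acids with sodium and chloride, were the sparsest family. Of 17 members 8 reached 1 FPKM in neither library, and 4 of these were listed at 0 in both (Slc6a2, Slc6a5, Slc6a13 and Slc6a15). Among the rest, 7 were at least 2-fold higher in the KIT-labelled library and none in the other. The glycine transporter Slc6a9 was at 47.8 against 9.65 FPKM and the creatine transporter Slc6a8 at 25.3 against 7.06 FPKM. The broad amino acid carrier Slc6a14 was at 11.7 against 1.22 FPKM. The neutral amino acid carriers of kidney and gut, Slc6a18 and Slc6a19, were at 10.2 against 0.176 FPKM and at 5.07 (about 7.29 fragments) against 0.876 FPKM. Slc6a18 had the highest ratio of all members with values in both libraries (57.8), while its second value corresponds to about 1.71 fragments.

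Slc6a6, the taurine transporter, led the family in the THY1-labelled library. It was at 6.37 and 12.7 FPKM, within 2-fold (-0.89, and -1.42 when scaled to a median ratio of 1). The GABA transporter Slc6a11 was at 2.28 against 0.271 FPKM and the dopamine transporter Slc6a3 at 1.05 FPKM against a listed 0, each under 4 fragments. The serotonin transporter Slc6a4 was at 1.27 and 0.435 FPKM (0.66, and 1.35 with a pseudocount of 0.1). Slc6a7, Slc6a12 and Slc6a17 were each below 1 FPKM in both. Around the creatine transporter, 3 of 6 genes of creatine synthesis and use were higher in the KIT-labelled library, including Ckb at 23.6 against 1.80 FPKM. One, the synthesis enzyme Gatm, was higher in the other, listed at 0 against 18.4 FPKM.

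Transcript length and GC content, which the choice of members did not use, were described. Length enters FPKM, and through it the 1 FPKM minimum and the grouping by direction. The lengths below are therefore not independent of the grouping. The FPKM medians of the 2 groups below are not independent, since the groups were formed from these same values. The 39 members higher in the KIT-labelled library had a median of 21.7 FPKM there and 1.28 FPKM in the other, and a median longest coding transcript of 3436 bases. The 13 higher in the THY1-labelled library had a median of 1.32 FPKM in the KIT-labelled library and 12.9 FPKM in the other, and a median length of 4660 bases. Across the 66 members above the minimum, Spearman's rho between difference and transcript length was -0.35, beside -0.09 over 13808 genes, and rho with GC content was 0.13, beside 0.14. All points of such a correlation come from the same 2 libraries. In approximate fragments, 12 of the 39 rested on fewer than 10 in the KIT-labelled library, and none of the 13 did in the THY1-labelled library, where the lowest was 11.3.

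Members listed at 0 in a single library reached at most 7.39 FPKM in the other. For the 10 listed at 0 in the KIT-labelled library alone (14.9% of all symbols were), the other value ran from 0.0961 to 7.39 FPKM. For the 7 listed at 0 in the THY1-labelled library alone (5.89% of all symbols) it ran from 0.456 to 2.94 FPKM. The highest of these 7, Slc2a7, rested on about 1.70 fragments. Among the 10, Slc7a11, Slc38a6 and Slc16a7 rested on about 160, 67.1 and 172 fragments, and the rest on about 11.3 or fewer. The median of symbols above 0 in the THY1-labelled library was 7.84 FPKM. The 11 listed at 0 in both (18.3% of all symbols) were Slc2a10, Slc5a1, Slc5a11, Slc1a6, Slc6a2, Slc6a5, Slc6a13, Slc6a15, Slc7a3, Slc7a13 and Slc38a3.

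In 7 pairs of members the genes stand next to each other among protein-coding genes. In 5 of these the differences had the same sign, a share that was not set beside that of all neighbouring genes. Among the 5, Slc38a2 with Slc38a4 rests on 0.0961 FPKM for Slc38a4. The remaining pairs show no opposed directions above 1 FPKM. They were Slc16a11 with Slc16a13, and Slc6a12 with Slc6a13, which was listed at 0 in both libraries. Slc38a1 and Slc38a2 were both higher in the THY1-labelled library, and Slc6a18 and Slc6a19 both higher in the KIT-labelled library. Slc16a11 was above 20 FPKM in both libraries beside Slc16a13, which reached 1 FPKM in neither. Among X-linked members, Slc6a8 and Slc6a14 were higher in the KIT-labelled library, Slc38a5 in the THY1-labelled library, and Slc7a3 was listed at 0 in both.

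Some values are uncertain because other genes overlap the members or share sequence with them. No member shared 5% or more of its 50-base stretches with another member, but 12 did so with other genes, mostly on the opposite strand. The overlap was 38.9% for Slc6a9 with Ccdc24 (5.73 and 25.4 FPKM), 30.1% for Slc1a1 with 4430402I18Rik (22.3 and 149 FPKM) and 24.1% for Slc16a6 with Amz2 (2.51 and 285 FPKM). It was 22.5% for Slc5a2 with BC017158 (listed at 0 and 2.71 FPKM). These 4 overlapping genes had their higher value in the THY1-labelled library, opposite to the transporter. Lrp3, which overlaps 15.0% of Slc7a10, was listed at 0 in both libraries, and Fam83g, which overlaps 11.7% of Slc5a10, was at 12.2 against 1.22 FPKM, in the same direction as the transporter. The largest share of any member was that of Slc38a6, whose longest transcript shared stretches with many genes on either strand. It was 53.5% with Noct on the opposite strand and 21.0% with D10Wsu102e (9.02 and 9.64 FPKM) on the same strand. Whether the authors' values kept the strand is not given in the sources used here.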

How the data were processed

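RNA was measured in 2 spermatogonial libraries. Total RNA was depleted of ribosomal RNA and made into directional libraries, per the labels' protocols. The deposited values, 1 per gene symbol, were taken as FPKM made by the authors with Cufflinks 2.1.1; headers name no unit. Per the submitters' processing notes, TopHat 1.4.1, CASAVA and mm9 were also used, without roles. The annotation, any filter and how multiply aligned reads were treated are not given in the sources used. FPKM depends on the library's total of mapped fragments, which is not known here. Rpph1 alone took 71.8% (KIT-labelled) and 37.9% (THY1-labelled) of the summed FPKM, which is not its share of mapped fragments.

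Differences were taken on log2(FPKM + 1), labelled KIT minus labelled THY1, with a pseudocount of 1. Unless stated, median differences and shares of genes higher in a library used genes that reached 1 FPKM in either library. Shares at a given level or listed at 0 used all members or all symbols. Shares within a family used all its members. No test was made, each group having 1 library. The members and lists were chosen with earlier results of these data known. Named were 40 transporters of a fixed set (Slc5a3, also in it, was not analysed here), per family up to 4 with the largest difference and at least 5 FPKM and 2 with the highest mean, and members at 0 in 1 library with at least 5 FPKM in the other; other members were named after their values were seen. Some genes that the rule names are counted but their values are not reported here. Lengths, GC and shared sequence came from GENCODE M21 and neighbours and start regions from RefSeq (both GRCm38, whose coordinates were not joined to the mm9 values); 86 members matched GENCODE. Percentile 5 of FPKM times length stood for 1 fragment. In each library it was taken over those of 2307 single-transcript genes above 1000 bases that were above 0 there. The counting was tested on simulated data. Python 3.11.15, numpy 2.4.6, pandas 2.3.3, scipy 1.17.1 and matplotlib 3.10.9 were used.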

Additional observations from a re-analysis of the deposited data

How the results depend on the processing

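With 1 library per group nothing could be left out. No paired analysis was possible because each spermatogonial group has 1 library. In all, 8 other settings were tried. The transporters' median of 1.39 became 2.13 with a pseudocount of 0.1, 1.17 when scaled to a median ratio of 1, 1.44 when scaled to the same upper quartile and 1.43 to the same sum without Rpph1. It became 0.92 with no filter, 1.75 and 2.52 with minimums of 5 and 30 FPKM, and 1.61 over genes above 0 in both libraries. The median of all genes moved to -0.55, 0.26 and 0.22 under the 3 scalings (in the same order), -0.40 and -0.99 with the minimums and 0.42 over genes above 0 in both. Its sign thus turned in 3 settings, and the transporters' median was above it in all. With a minimum of 30 FPKM, 17 transporters were higher in the KIT-labelled library and 4 in the other (2175 and 2815 of all genes). Over genes above 0 in both, 4175 of all genes were higher in the THY1-labelled library. All other counts over transporters and over all genes stayed within 1.5 times. Of the named members no called difference changed sign; 2 were lost under the median ratio (Slc5a6 and Slc7a7), and those gained are given beside each gene in the report. The unknown depth limits values of few fragments in the KIT-labelled library most.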
